A study of Mus musculus with 8 samples.

Results

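The zinc-handling genes Slc30a1, Slc30a5, Slc30a7, Slc30a8, Slc30a9, Slc39a6, Slc39a7, Slc39a14, Mt1 and Mt2 were examined in RNA from pancreatic islets of βIgf1r and βIgf1rKD mice. The 10 genes were taken by symbol from a table of 53012 Ensembl genes, and all 10 carried enough counts to be tested. Islets came from 17-month-old mice, 4 per group, with both sexes in each group and the sex of each mouse not marked in the labels. All 8 mice carried Igf1r flox/flox, in which exon 3 of Igf1r, the gene of the IGF1 receptor, is flanked by loxP sites. The βIgf1rKD mice were Ins1-CreERT2+/- and were given tamoxifen, 0.075 mg/g in each of 5 injections. The βIgf1r mice were Ins1-CreERT2-/- and were given corn oil alone. Each mouse gave its own library, from islets taken 7 days after injections ended. Cre and tamoxifen were therefore given to the βIgf1rKD mice alone, and their effects cannot be told apart from that of the Igf1r deletion. The genotype names Ins1 as the driver of the tamoxifen-activated Cre, while the methods describe a rat insulin promoter.

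Zinc enters the cytosol through importers of the SLC39 (ZIP) family and leaves it, towards organelles or out of the cell, through exporters of the SLC30 (ZnT) family. Metallothioneins are small cysteine-rich proteins that bind zinc in the cytosol and buffer it. The β-cell holds an unusually large store of zinc in its insulin granules, where ZnT8, encoded by Slc30a8, brings in the zinc with which insulin is packed. When cytosolic zinc is high, the transcription factor MTF1 binds metal response elements and turns on the metallothionein genes and Slc30a1.

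The promoter sequences of the classic MTF1 targets Mt1, Mt2 and Slc30a1 are shown with matches to the core of the metal response element marked. Each is the 250 bases before the RefSeq transcription start in GRCm38.p6, on the plus strand, written 5′ to 3′. The windows are chr8:94178839-94179088 for Mt1, chr8:94172368-94172617 for Mt2 and chr1:191906531-191906780 for Slc30a1. Capitals mark each match to TGCACNC or TGCGCNC, the core of the metal response element, on either strand; the spellings differ at a single base and were counted together.
Mt1: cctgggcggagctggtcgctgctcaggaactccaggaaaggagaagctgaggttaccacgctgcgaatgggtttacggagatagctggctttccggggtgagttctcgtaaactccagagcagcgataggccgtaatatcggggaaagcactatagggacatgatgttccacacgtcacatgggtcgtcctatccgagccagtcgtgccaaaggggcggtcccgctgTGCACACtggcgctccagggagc
Mt2: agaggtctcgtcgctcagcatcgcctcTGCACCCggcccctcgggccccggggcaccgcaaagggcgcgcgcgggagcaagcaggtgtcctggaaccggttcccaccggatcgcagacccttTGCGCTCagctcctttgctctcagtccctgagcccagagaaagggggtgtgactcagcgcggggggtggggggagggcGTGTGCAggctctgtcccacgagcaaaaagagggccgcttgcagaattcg
Slc30a1: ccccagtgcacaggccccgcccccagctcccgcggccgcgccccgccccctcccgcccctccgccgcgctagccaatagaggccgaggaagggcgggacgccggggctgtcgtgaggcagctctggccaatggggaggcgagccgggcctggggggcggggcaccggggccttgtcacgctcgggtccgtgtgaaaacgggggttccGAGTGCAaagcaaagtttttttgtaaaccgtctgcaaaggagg

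Mt2 held 3 matches in these 250 bases, with their leftmost bases at positions -223, -128 and -50 from the start. Mt1 held 1, at -23, and Slc30a1 held 1, at -43. Among 32851 RefSeq promoters, 21.41% had at least 1 match in the same stretch and 1.26% had at least 3. When the 50 bases after the start were included, Mt2 had 4 matches, Mt1 3 and Slc30a1 2, against 0.52%, 1.97% and 7.11% of all promoters with at least as many. The added matches lay at positions 3 and 21 for Mt1, 5 for Mt2 and 31 for Slc30a1, outside the printed bases. The printed bases therefore do not hold every match near the start, and which matches respond to zinc was not tested. RefSeq windows were found for 7 of the 10 genes: Slc30a5 held 1 match, at -48, and Slc30a7, Slc30a9 and Slc39a7 held 0 in 300 bases. Slc30a8, Slc39a6 and Slc39a14 were not searched. A match describes the letters only and does not show that MTF1 was bound there in these islets.

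The libraries held 21633925 to 42391106 estimated counts each. Levels are given as CPM, a count scaled to library size, with TMM factors, which set the libraries to a common scale from the bulk of their genes. Insulin granule and β-cell genes took 18.1% to 24.7% of counts in βIgf1r libraries and 11.5% to 24.9% in βIgf1rKD libraries, with none of the 12 genes at 0. All shares in this paragraph are of counts before TMM scaling, so they depend on each other. By edgeR after TMM scaling, 5 of the 12 genes were higher and 7 lower, with a median log2 fold change of -0.05. Of these, 1 gene, Ins1, was lower at an unadjusted p under 0.05. Digestive enzyme genes of acinar cells, the exocrine tissue around the islets, took 2.39%, 4.10%, 17.7% and 10.7% in M148, M151, M152 and M153, and 17.4%, 5.04%, 19.9% and 13.7% in M145, M146, M149 and M150. All 12 acinar genes had a positive log2 fold change (0.69 to 1.44) and 0 of them had an unadjusted p under 0.05. Endothelial markers took 0.0444% to 0.067% against 0.0309% to 0.046%. By edgeR 10 of 10 tested endothelial genes were lower and 6 of them had an unadjusted p under 0.05, beside 1.89% of all genes. Macrophage markers took 0.012% to 0.0206% against 0.0109% to 0.024%. By edgeR 7 of 8 macrophage genes were higher and 2, C1qb and C1qc, had an unadjusted p under 0.05, beside 2.23% of all genes. After adjustment 0 genes passed. The part of endothelial and macrophage RNA in the results was not tested. In whole islets, fewer cells of a type and less RNA per cell cannot be told apart. Igf1r itself averaged 53.6 CPM in the βIgf1r group and 50.7 CPM in the βIgf1rKD group (SD 7.21 and 4.996, n = 4 each). Its log2 fold change was -0.08 (SE 0.11, adjusted p = 0.988) by edgeR's quasi-likelihood test. The ratio of βIgf1rKD to βIgf1r was 0.946, with a 95% interval of 0.798 to 1.12. A lower Igf1r level was thus not resolved in these libraries. The paper reports reduced Igf1r mRNA in βIgf1rKD islets, which likewise hold cells without the Cre. A count over the whole gene does not single out the deleted exon. The extent of the deletion in these libraries was not tested, which limits the reading of the group comparisons below.

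None of the zinc transporter and metallothionein genes differed between βIgf1rKD and βIgf1r islets beyond the spread between mice. By edgeR's quasi-likelihood test 0 of the 10 genes had an unadjusted p under 0.05, and their p values ran from 0.166 for Slc30a8 to 0.858 for Slc30a7. DESeq2 and limma-voom likewise gave 0 of 10, with unadjusted p values for Slc30a8 of 0.0592 and 0.0987, smaller than by edgeR. Over all 15474 genes tested, 637 or 4.12% had an unadjusted p under 0.05 (2.23% higher and 1.89% lower), and 0% passed after Benjamini-Hochberg adjustment, the smallest adjusted p being 0.948. Groups overlapped in every one of the 10 genes, while 2.22% of all genes had groups that did not overlap. Log2 fold changes, always βIgf1rKD minus βIgf1r, were positive for 5 genes and negative for 5, from -0.20 to 0.19, with a median of -0.003 beside 0.008 over all genes. In this edgeR fit with TMM, the 95% interval of each of the 10 genes lay within ±0.58 on the log2 scale. Changes of 1.5-fold or more in either direction thus fell outside all 10 intervals, taken one gene at a time. That bound was not examined in the alternative settings, and Slc30a8 was at -0.41 without TMM (unadjusted p = 0.153, edgeR). Of 17 alternative settings, library size without TMM moved the median log2 fold change of all genes to -0.19, and 5 of the 10 genes changed sign. Relative to that median each of the 10 genes kept its sign, with Slc30a8 at -0.22 and Mt1 at 0.17. Subtracting the median largely puts back the scaling that this setting left out, so the kept signs are not a separate check. Under the other settings the direction was kept for 5 genes, negative for Slc30a8, Slc30a9 and Slc39a6 and positive for Slc39a14 and Mt1, and turned at least once for Slc30a1, Slc30a5, Slc30a7, Slc39a7 and Mt2.

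**Figure D1:**
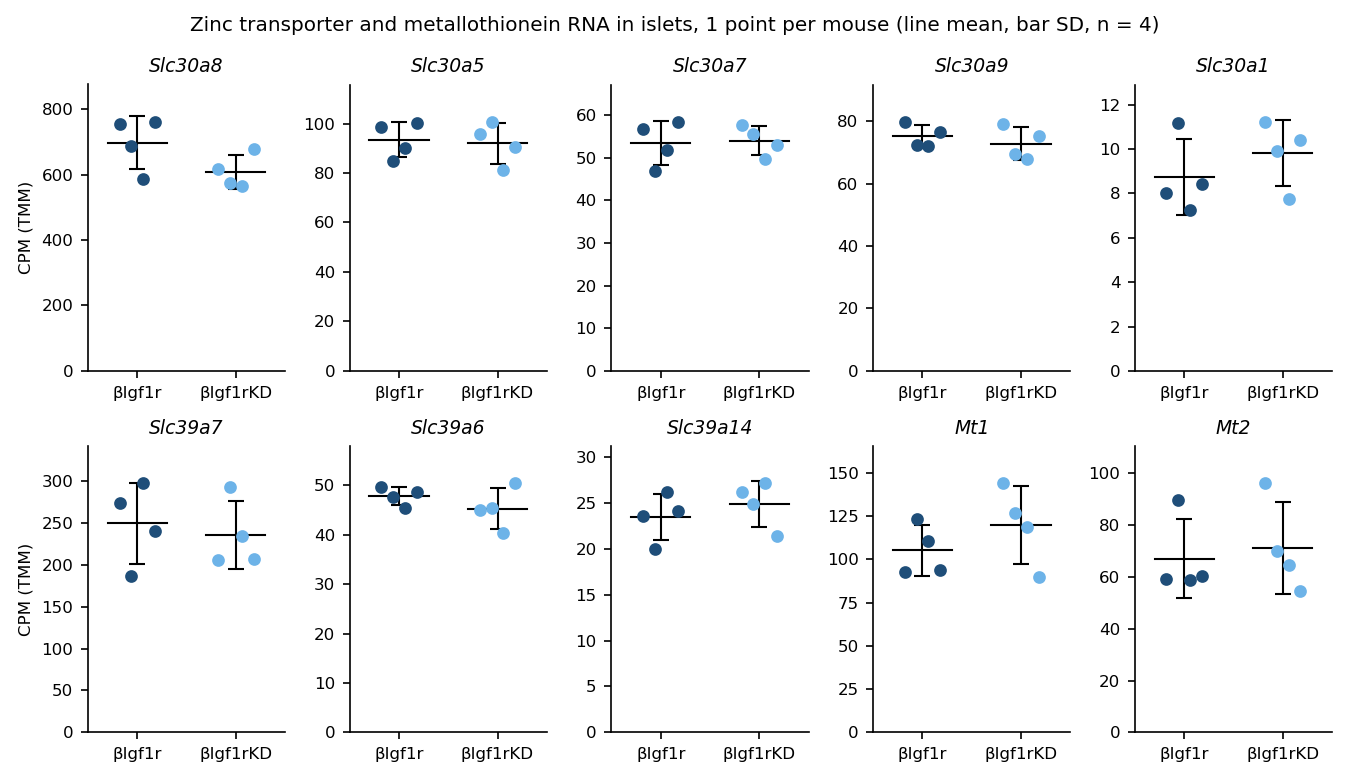
CPM after TMM scaling (y axis, from 0) of each of the 10 genes in βIgf1r (dark blue) and βIgf1rKD (light blue) islets; points are mice, horizontal lines group means and bars SD (n = 4). The groups overlap in every panel, and M145 and M151, 1 mouse of each group, have the highest Mt2.

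Slc30a8, the granule transporter, had the highest level per length of these genes and the smallest p among them. Per-mouse values are listed throughout in the order M148, M151, M152 and M153 for βIgf1r and M145, M146, M149 and M150 for βIgf1rKD. Slc30a8 (ENSMUSG00000022315, chromosome 15, 52295553 to 52335798 on the plus strand in GRCm38, from GENCODE M21) stood at 754.8, 687.5, 587.3 and 761.4 CPM in βIgf1r islets and at 617.8, 575.1, 564.6 and 678.7 CPM in βIgf1rKD islets. M148, M151 and M153 lay above all βIgf1rKD mice, and M152 lay among them. The means were 697.8 ± 80.9 and 609.1 ± 51.8 CPM (SD, n = 4), a ratio of 0.873 with a 95% interval of 0.712 to 1.07. By edgeR's quasi-likelihood test the log2 fold change was -0.20 (SE 0.13, adjusted p = 0.987, unadjusted p = 0.166), and 16.0% of all genes tested had a smaller p. M152 was also the βIgf1r mouse with the largest acinar share, 17.7% of counts. The βIgf1rKD mice M145 and M149 had shares of 17.4% and 19.9%. Without M152 the log2 fold change of Slc30a8 was -0.27 (unadjusted p = 0.0634, edgeR). The groups then no longer overlapped, which had to follow, as M152 was the only βIgf1r mouse within the βIgf1rKD range. With all mice kept and the acinar marker level as a covariate, the log2 fold change was -0.15 (unadjusted p = 0.287, edgeR).

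Slc30a8 was also set against other granule genes of the same library, so that library size drops out. The log2 ratio of Slc30a8 to Iapp, which encodes the amyloid peptide released together with insulin, was -4.69, -4.40, -4.58 and -4.84 in βIgf1r islets and -4.55, -4.82, -4.59 and -4.49 in βIgf1rKD islets. The values of the groups were interleaved. Their means were -4.63 ± 0.18 and -4.61 ± 0.15, a difference of 0.01 (SD, n = 4, exact two-sided permutation test over 70 assignments, p = 0.886). The log2 ratio of Slc30a8 to Chga, which encodes the granule protein chromogranin A, averaged -4.35 ± 0.24 and -4.56 ± 0.29, a difference of -0.21 (SD, n = 4, exact permutation p = 0.343). The insulin genes were added as references after the data had been seen. Against Ins2 the log2 ratio averaged -7.37 ± 0.23 and -7.48 ± 0.32, a difference of -0.11 (SD, n = 4, exact permutation p = 0.600).

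Ins1 was the granule gene that differed most between the groups, at a mean of 41092 CPM in βIgf1r and 21699 CPM in βIgf1rKD islets, with no overlap between the groups. Its log2 fold change was -0.92 (SE 0.33, edgeR adjusted p = 0.987, unadjusted p = 0.0204). The Cre allele that only the βIgf1rKD mice carried is named for Ins1, and its part in this value cannot be told apart. The log2 ratio of Slc30a8 to Ins1 was -5.75, -5.50, -6.17 and -6.05 in βIgf1r and -4.95, -5.63, -5.11 and -4.85 in βIgf1rKD islets. M145, M149 and M150 lay above all βIgf1r mice, and M146 lay below M151. The difference of the means was 0.73 (n = 4, exact two-sided permutation p = 0.0571). After adjustment over the 5 ratios compared, those of Slc30a8 and that of Mt1 to Mt2, the exact permutation p values ran from 0.285 for Ins1 to 0.886 for Iapp. The direction of the Slc30a8 ratio depended on the reference gene.

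The exporters of the secretory pathway, Slc30a5 and Slc30a7, which supply zinc to the Golgi and to enzymes made there, were among the steadiest of the 10 genes. Slc30a5 (ENSMUSG00000021629, chromosome 13, 100802648 to 100833427, minus strand) stood at 98.6, 84.9, 90.2 and 100.1 CPM in βIgf1r and at 95.6, 100.7, 81.3 and 90.4 CPM in βIgf1rKD islets. Slc30a7 (ENSMUSG00000054414, chromosome 3, 115938973 to 116007406, minus strand) stood at 56.6, 46.9, 51.7 and 58.4 CPM and at 57.6, 55.5, 49.8 and 53.0 CPM. M151 was the lowest βIgf1r mouse and M149 the lowest βIgf1rKD mouse for both genes, and the groups covered nearly the same range. The log2 fold changes were -0.02 (SE 0.09, 95% interval -0.22 to 0.18) for Slc30a5 and 0.02 (SE 0.09, -0.18 to 0.21) for Slc30a7, with adjusted p values of 0.994 and 0.997 by edgeR's quasi-likelihood test.

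Slc30a9, which moves zinc out of mitochondria, varied least of all 10. Its levels (ENSMUSG00000029221, chromosome 5, 67306955 to 67358443, plus strand) were 79.8, 72.2, 72.1 and 76.5 CPM in βIgf1r and 79.0, 69.4, 67.7 and 75.2 CPM in βIgf1rKD islets. Both groups spanned the same levels apart from the lowest, M146 and M149. The coefficient of variation over the 8 mice was 5.88%, against a median of 14.3% over all genes tested, and 6 of the 10 genes were below that median. The log2 fold change was -0.05 (SE 0.07, 95% interval -0.21 to 0.12, edgeR adjusted p = 0.988).

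Slc30a1, the exporter of the plasma membrane, had the lowest level per length of the 10, with 178 to 422 counts per library. It stood (ENSMUSG00000037434, chromosome 1, 191906767 to 191913247, plus strand) at 8.04, 11.2, 7.26 and 8.44 CPM in βIgf1r and at 11.2, 9.93, 7.75 and 10.4 CPM in βIgf1rKD islets. M145, M146 and M150 lay above M148, M152 and M153, while M151 matched the highest βIgf1rKD mouse. The means were 8.74 ± 1.72 and 9.83 ± 1.49 CPM (SD, n = 4), a ratio of 1.13 with a 95% interval of 0.874 to 1.45. The log2 fold change was 0.17 (SE 0.16, edgeR adjusted p = 0.987), and it turned to -0.01 when the level of Xist, an RNA of the inactive X chromosome that differs between the sexes, was included as a covariate.

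Of the importers, the highest level per length was that of Slc39a7, the ZIP7 of the endoplasmic reticulum that releases zinc from the secretory pathway into the cytosol. Slc39a7 (ENSMUSG00000024327, chromosome 17, 34028269 to 34031682, minus strand) stood at 273.8, 186.1, 296.9 and 240.6 CPM in βIgf1r and at 206.0, 293.1, 234.0 and 207.2 CPM in βIgf1rKD islets. The lowest and the highest mouse were both βIgf1r. The means were 249.4 ± 48.1 and 235.1 ± 40.8 CPM (SD, n = 4), and the log2 fold change was -0.08 (SE 0.17, 95% interval -0.46 to 0.29, edgeR adjusted p = 0.989). With Xist as a covariate it was 0.03.

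Slc39a6 and Slc39a14 bring zinc in at the plasma membrane, and Slc39a14 also carries iron and manganese and is known as an acute-phase gene of the liver. Slc39a6 (ENSMUSG00000024270, chromosome 18, 24579881 to 24603817, minus strand) stood at 49.7, 47.7, 45.3 and 48.6 CPM in βIgf1r and at 44.96, 45.4, 40.4 and 50.4 CPM in βIgf1rKD islets. Slc39a14 (ENSMUSG00000022094, chromosome 14, 70303469 to 70351425, minus strand) stood at 23.6, 20.01, 26.1 and 24.1 CPM and at 26.2, 24.9, 27.1 and 21.4 CPM. M150 went against the rest of its group in both genes, with the highest Slc39a6 of all 8 mice and the lowest Slc39a14 of the βIgf1rKD mice. By edgeR's quasi-likelihood test the log2 fold changes were -0.08 (SE 0.08, 95% interval -0.26 to 0.10) for Slc39a6 and 0.08 (SE 0.11, -0.16 to 0.33) for Slc39a14, both with an adjusted p of 0.987.

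Mt1 and Mt2, the zinc-binding metallothioneins, lie side by side on the plus strand of chromosome 8, Mt2 (ENSMUSG00000031762) at 94172664 to 94173568 and Mt1 (ENSMUSG00000031765) at 94179082 to 94180327, with 5513 bases between them. Mt1 stood at 92.7, 123.6, 110.8 and 94.1 CPM in βIgf1r and at 144.0, 126.8, 118.9 and 89.7 CPM in βIgf1rKD islets. The 8 mice ran from M150, the lowest, to M145, the highest, both βIgf1rKD, with the βIgf1r mice in between. The means were 105.3 ± 14.7 and 119.9 ± 22.7 CPM (SD, n = 4), a ratio of 1.14 with a 95% interval of 0.900 to 1.44. The log2 fold change was 0.19 (SE 0.15, edgeR adjusted p = 0.987, unadjusted p = 0.248). Single mice set which side of the unadjusted threshold Mt1 fell on: without M150 the log2 fold change was 0.30 (unadjusted p = 0.0442, edgeR), with no gene of all those tested under 0.05 after adjustment, and without M145 it was 0.09 (unadjusted p = 0.583).

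Mt2 was 59.1, 89.6, 58.8 and 60.2 CPM in βIgf1r and 96.0, 70.01, 64.5 and 54.4 CPM in βIgf1rKD islets. M145 and M151, 1 mouse of each group, stood above the other mice, and M150 was again the lowest. Mt2 had the largest coefficient of variation of the 10 genes, 22.3%. The means were 66.9 ± 15.1 and 71.2 ± 17.7 CPM (SD, n = 4), a ratio of 1.06 (95% interval 0.788 to 1.43), with a log2 fold change of 0.09 (SE 0.19, edgeR adjusted p = 0.989). Without M145 the log2 fold change was -0.09.

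Mt1 and Mt2 varied together from mouse to mouse. Over the 8 mice, log2 CPM of the metallothioneins had a Pearson's r of 0.85 (exact permutation p = 0.00417, adjusted p = 0.0458 over 11 relations) and a Spearman's rho of 0.90 (exact permutation p = 0.00456, adjusted p = 0.0502). Deviations from the group means gave an r of 0.87. Without M145 and M150, the mice farthest from the median of Mt1, r was 0.67, so that part of the relation rested on those mice. The log2 ratio of Mt1 to Mt2 was 0.65, 0.46, 0.91 and 0.64 in βIgf1r and 0.58, 0.86, 0.88 and 0.72 in βIgf1rKD islets. M151 and M145, the mice richest in Mt2, had the lowest ratios. The ratio averaged 0.67 ± 0.18 and 0.76 ± 0.14, a difference of 0.09 (SD, n = 4, exact two-sided permutation p = 0.457). The longest run of bases that Mt1 and Mt2 transcripts share was 20, and the deposited counts of both genes were whole numbers, within 1e-06, in all 8 libraries.

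The other 10 relations of that family set each of the 10 genes against the acinar marker level, and none had an adjusted p under 0.05. Pearson's r ran from -0.52 for Slc39a6 to 0.55 for Slc39a14. For Slc30a8 it was -0.50 (n = 8, exact permutation p = 0.199), and -0.07 without M148 and M151, the mice lowest in acinar RNA. Slc39a14 had a rho of 0.79 (n = 8, exact permutation p = 0.0279, adjusted p = 0.154).

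Among all 45 pairs of the 10 genes, a family added after the data had been seen, 4 had an unadjusted exact permutation p under 0.05 and 0 had an adjusted p under 0.05. Slc30a5 and Slc30a7 had an r of 0.89 and a rho of 0.81 (n = 8, exact permutation p = 0.00429 and 0.0218, adjusted p = 0.0965 and 0.295). Their r was 0.91 within groups and 0.81 without M151 and M149. Slc30a8 and Slc39a6 had an r of 0.82 (n = 8, exact permutation p = 0.0109, adjusted p = 0.163), and Slc39a6 and Slc39a14 had an r of -0.72 (n = 8, exact permutation p = 0.0398, adjusted p = 0.371). In this family the adjusted p of Mt1 with Mt2 was also 0.0965.

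**Figure D2:**
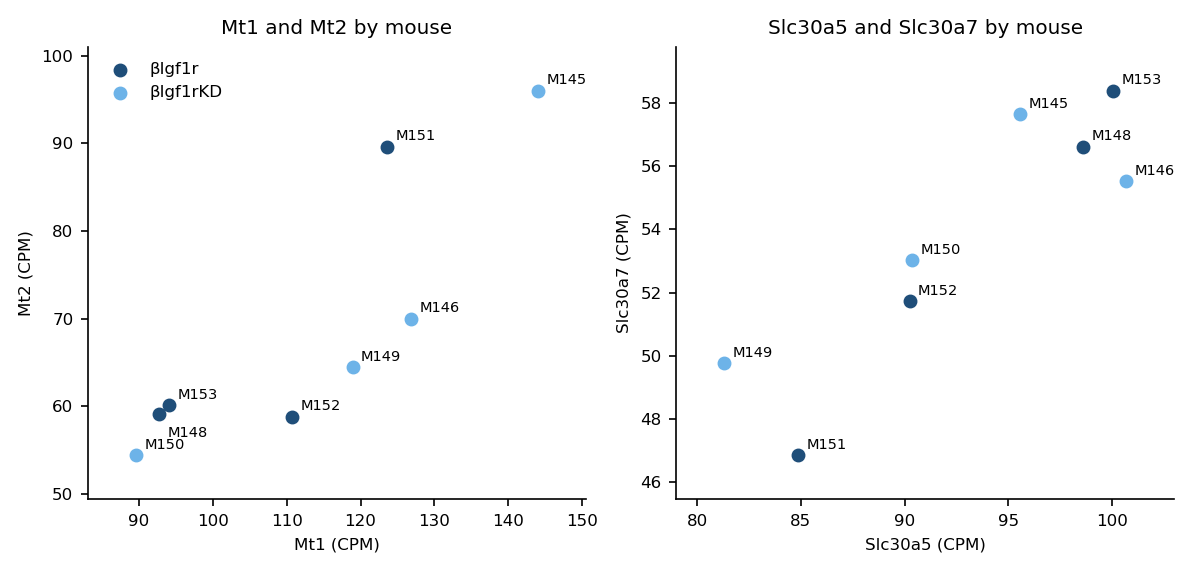
CPM of Mt2 against Mt1 (left) and of Slc30a7 against Slc30a5 (right), linear axes that do not start at 0, with 1 labelled point per mouse, βIgf1r in dark blue and βIgf1rKD in light blue. M145 and M151 lie at the top of the metallothionein plot and M150 at its lower left; both groups are spread along the same diagonal in the exporter plot.

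Levels of different genes were compared per length, as CPM per kilobase of the principal transcript in GENCODE M21, averaged over all 8 mice. Slc30a8 led with 332 ± 40.0 CPM per kilobase (SD, n = 8), followed by Mt1 with 205 ± 35.2, Mt2 with 135 ± 30.2 and Slc39a7 with 104 ± 18.1. Slc30a5 came next at 29.2 CPM per kilobase, then Slc30a9 at 13.0, Slc39a6 at 11.99, Slc30a7 at 5.95, Slc39a14 at 4.91 and Slc30a1 at 1.77. The level of Slc30a8 per kilobase was 187 times that of Slc30a1, and Slc30a8 took 42.0% to 51.7% of the counts of the 10 genes. Each gene stood above the next in 8 of 8 mice, except that Mt2 stood above Slc39a7 in 6 of 8. The ranges over mice nevertheless overlapped between Mt1 and Mt2, Mt2 and Slc39a7, Slc30a9 and Slc39a6, and Slc30a7 and Slc39a14. The order of the middle genes depended on the transcript length chosen. With the mean length of the coding transcripts, an alternative added after the data had been seen, Slc30a8 was still first at 332 and Slc30a1 last at 3.14 CPM per kilobase. Slc39a7 at 162 and Mt2 at 154 then came above Mt1, Slc39a6 at 24.1 came above Slc30a9 at 18.8, and Slc39a14, at 16.6, came above Slc30a7, at 5.95.

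**Figure D3:**
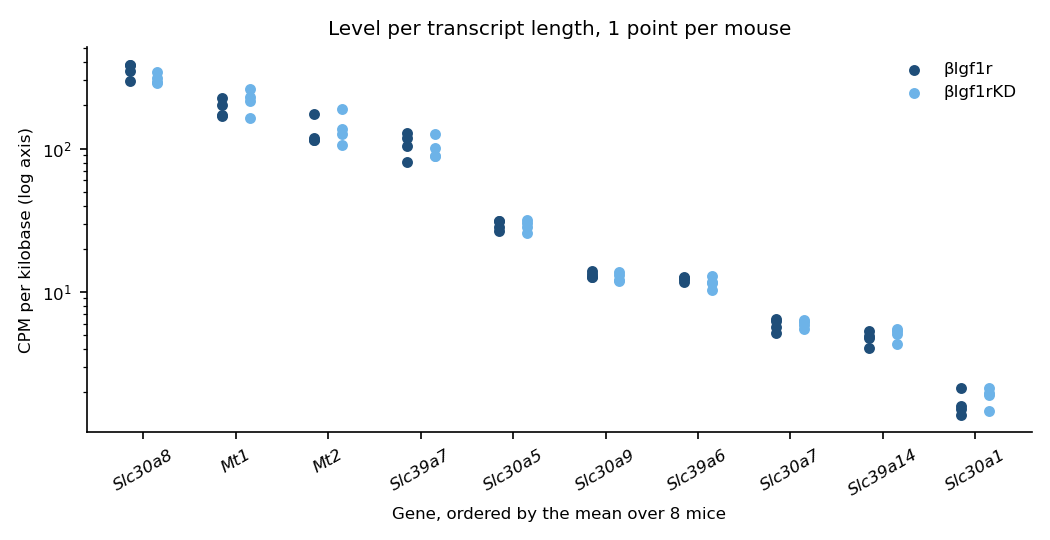
CPM per kilobase of principal transcript (log y axis) of the 10 genes in order of their mean over 8 mice, 1 point per mouse, βIgf1r in dark blue and βIgf1rKD in light blue. Slc30a8 is highest in every mouse and Slc30a1 lowest, and the points of Mt2 and Slc39a7 overlap.

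The genes whose log2 CPM followed Slc30a8 most closely over the 8 mice were Prps1, an enzyme of nucleotide synthesis, with a Pearson's r of 0.991, Wls, which carries Wnt proteins to the cell surface, with 0.979, and Akr1c14, an aldo-keto reductase, with 0.973. For Mt1 they were Plac8 with 0.954, the cytochrome P450 gene Cyp2c65 with 0.918 and the DNA helicase gene Recql4 with 0.912. These were picked as the highest of all genes tested, so the values are a description, and the 3 genes nearest to Mt1 were scarce, none of them above 7.86 CPM in any mouse.

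The other genes of the transporter and metallothionein families were read in the same fit. Of 29 genes listed, 24 were tested, the 10 above and 14 more; 14 had a positive and 10 a negative log2 fold change. Among the 9 SLC30-type exporters tested the median log2 fold change was 0.02, and 0 had an unadjusted p under 0.05. Values ran from -0.20 (SE 0.12) for Tmem163, a zinc efflux transporter, to 0.74 (SE 0.64) for Slc30a2, which had only 10 to 56 counts per library. Among the 12 SLC39 importers the median was 0.04, and 1 gene, Slc39a8, had an unadjusted p under 0.05. Among the 3 metallothioneins tested the median was 0.09, with Mt3, the form known from brain, at -0.49 (SE 0.35) and 17 to 54 counts. Slc30a3, Slc30a10, Slc39a2, Slc39a12 and Mt4 were too low to test, with at most 32 counts in any library. With all mice the unadjusted p values of Tmem163 and Mt3 were 0.141 and 0.194 by edgeR. Without M151 their log2 fold changes were -0.30 and -0.72, with unadjusted p values of 0.00772 and 0.0346 by edgeR. With any other mouse left out, the edgeR unadjusted p ran from 0.145 to 0.416 for Tmem163 and from 0.162 to 0.453 for Mt3. Without M151, 749 of all genes had an unadjusted p under 0.05 and 0 passed after adjustment.

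Slc39a8, which encodes ZIP8, an importer of zinc and manganese, stood at 0.719, 0.400, 1.42 and 1.23 CPM in βIgf1r and at 2.81, 0.821, 4.44 and 1.87 CPM in βIgf1rKD islets. M146 lay among the βIgf1r mice and the other βIgf1rKD mice lay above them. The counts were low, 11 to 102 per library, and the log2 fold change was 1.39 (SE 0.53, 95% interval 0.20 to 2.59, edgeR adjusted p = 0.987, unadjusted p = 0.0266). M149 and M145, the highest in Slc39a8, were also the βIgf1rKD mice with the most acinar RNA, 19.9% and 17.4% of counts. With the acinar marker level as a covariate the log2 fold change of Slc39a8 was 0.64 (unadjusted p = 0.148, edgeR), whereas with Xist and the acinar level together it was 1.16 (unadjusted p = 0.0173) and with Xist alone 1.92 (unadjusted p = 0.00177). It was no longer under the unadjusted threshold without M148, M151, M145 or M149, with log2 fold changes of 1.28, 1.14, 1.33 and 0.96. Slc39a5, another importer, ranged more widely, at 3.75, 6.002, 47.9 and 20.8 CPM in βIgf1r and 46.9, 10.9, 44.5 and 29.3 CPM in βIgf1rKD islets. Its lowest values were in M148, M151 and M146, the mice with the least acinar RNA. Its log2 fold change of 0.75 (SE 0.73, unadjusted p = 0.331, edgeR) was 0.04 with the acinar covariate, 1.48 with Xist (unadjusted p = 0.113) and 1.71 without M152 (unadjusted p = 0.0297), and that of Slc30a2 was -0.06 with the acinar covariate and 1.29 with Xist.

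**Figure D4:**
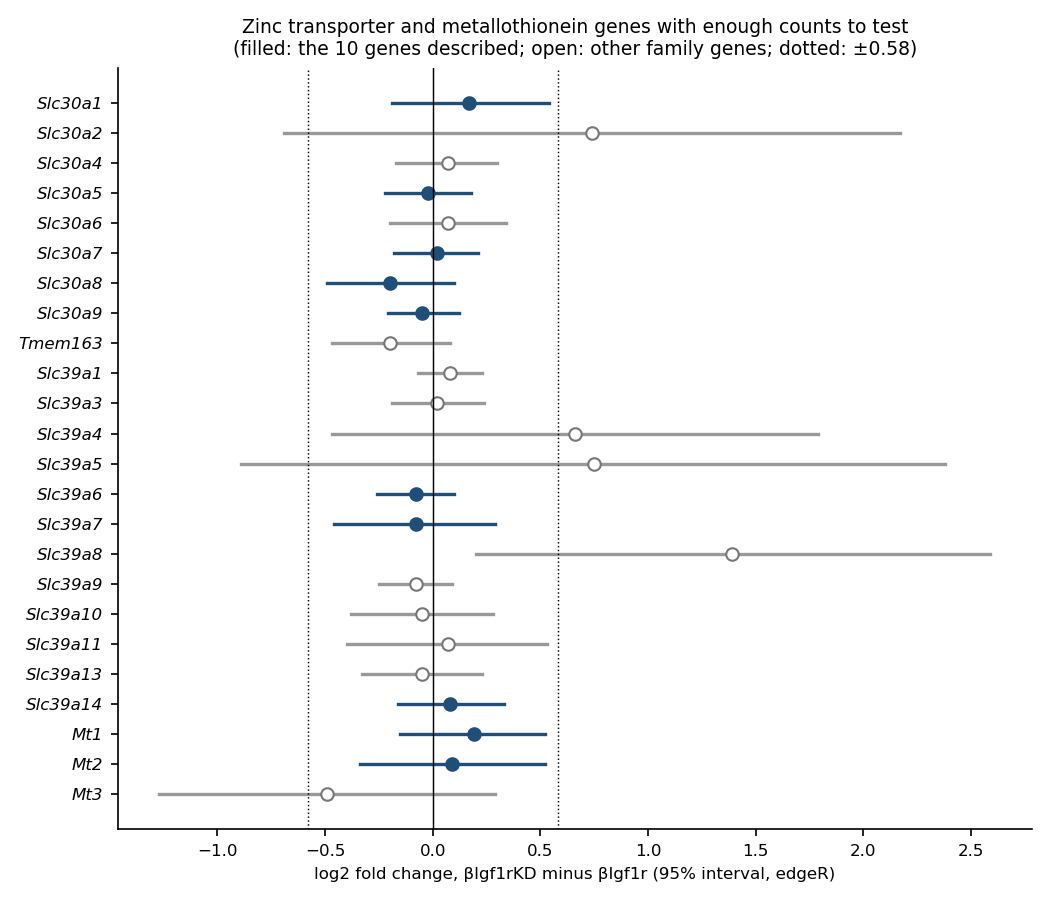
Log2 fold change, βIgf1rKD minus βIgf1r, with its 95% interval from edgeR (x axis) for the 24 transporter and metallothionein genes tested; filled points are the 10 genes described and open points the other 14, and dotted lines mark ±0.58. The intervals of the 10 genes all cross 0 and stay within the dotted lines, while that of Slc39a8 lies wholly above 0.

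Lists of genes that share regulators with the metallothioneins were read in the same fit. Mtf1 itself had a log2 fold change of -0.03 (SE 0.08). Its list of 9 genes, all tested, includes Mtf1 and also Mt1, Mt2 and Slc30a1, which are among the 10 genes described. Of the 9 genes, 6 were positive, Mt1, Mt2 and Slc30a1 among them, and 3 negative, with 0 at an unadjusted p under 0.05. Values ran from -0.09 for Ndrg1 to 0.21 for Csrp1. The median of 0.09 was the value of Mt2, so the list is not separate from the genes described. Glucocorticoid-responsive genes, which like Mt1 and Mt2 answer to adrenal steroids, had a median of 0.02 over 6 tested, from -0.18 for Dusp1 to 0.20 for Fkbp5, with 0 at an unadjusted p under 0.05. The NRF2 genes of the oxidative stress response had a median of 0.04 over 7, from -0.04 for Gclm to 0.64 for Slc7a11. Of 7 acute-phase and IL6-STAT3 genes 5 were tested, as Lcn2 and Fgg had too few counts. The 5 ran from -0.15 for Il6ra to 1.06 for Cebpd (SE 0.48, unadjusted p = 0.0551, edgeR). Their median of 0.65 was the value of Socs3, which was 0.30 without M145. Cebpd stood at 15.95 and 9.25 CPM in M145 and M146, while M149 and M150, at 3.70 and 4.09 CPM, lay within the βIgf1r range. Saa3 had only 2 to 65 counts per library. In all, 3 of the 46 genes tested from the 7 lists had an unadjusted p under 0.05 (Slc39a8, Nqo1 and Socs3), beside 4.12% of all genes, and 0 passed after adjustment.

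Nqo1, a quinone reductase and NRF2 target, stood at 3.81, 4.37, 2.63 and 3.51 CPM in βIgf1r and at 7.16, 5.14, 3.79 and 5.67 CPM in βIgf1rKD islets, with M149 inside the βIgf1r range. Its log2 fold change was 0.60 (SE 0.22, edgeR adjusted p = 0.987, unadjusted p = 0.0230), and without M145, M150 or M152 its unadjusted p was 0.0740, 0.0502 and 0.0586. The log2 fold change of Nqo1 was 0.37 with Xist as a covariate (unadjusted p = 0.0784, edgeR), 0.36 with Xist and the acinar level (unadjusted p = 0.186) and 0.37 without TMM (unadjusted p = 0.231). Socs3, a feedback inhibitor of cytokine signalling, stood at 5.32, 6.29, 4.73 and 5.64 CPM and at 14.4, 8.82, 6.09 and 5.40 CPM. M145, the mouse highest in Mt1 and Mt2, was also highest in Nqo1 and Socs3. M150, the lowest in both metallothioneins, had the next highest Nqo1, 5.67 CPM, and a Socs3 level within the βIgf1r range. Relations of Nqo1 and Socs3 with the metallothioneins were not tested. The log2 fold change of Socs3 was 0.65 (SE 0.28, edgeR adjusted p = 0.987, unadjusted p = 0.0466), and 0.30 without M145 (unadjusted p = 0.158). The log2 fold change of Socs3 was 0.44 with Xist (unadjusted p = 0.169, edgeR), 0.31 with both covariates (unadjusted p = 0.429), 0.67 with the acinar level (unadjusted p = 0.0784), 0.42 without TMM (unadjusted p = 0.153) and 0.50 with limma-voom (unadjusted p = 0.116). Its unadjusted p also rose above 0.05 when any of the 4 βIgf1r mice or M146 was left out.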

How the data were processed

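RNA-seq was performed on islets of 8 mice. Per the labels and methods, total RNA was purified with RNeasy Micro columns and stranded TruSeq mRNA libraries were made; the submitters' processing notes name fastp, kallisto and GRCm38, and the annotation release is not given in the sources used here. The authors deposited estimated counts per Ensembl gene, which need not be whole numbers; depth was 21633925 to 42391106 per library. Of 53012 identifiers, 51906 matched a symbol. Counts were rounded, filtered with filterByExpr (15474 genes kept), scaled by TMM and fitted with edgeR 4.0.16 in R 4.3.3 (quasi-likelihood test, no covariate, 4 βIgf1r against 4 βIgf1rKD mice, Benjamini-Hochberg over all genes). DESeq2 1.42.0 and limma 3.58.1 (voom) were alternatives, with other size factors, filters, covariates (Xist, acinar marker score) and each mouse left out in turn. Library size without TMM, both covariates together, mean transcript lengths, the insulin genes as references and all 45 gene pairs were added after seeing the data. Ratios and correlations used log2 CPM (prior count 2) and exact two-sided permutation tests; with 4 mice against 4 there are 70 assignments. The acinar score was the mean z-score of log2 CPM over 12 markers.

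Coordinates and transcript lengths came from GENCODE M21 and promoters from RefSeq, both on GRCm38. Scripts were tested on simulated data. The genes and lists were chosen with earlier results of these data known. Named were the 10 genes, listed genes with an unadjusted p under 0.05, those at either end of each zinc or companion list, and the 3 genes most correlated with Slc30a8 and with Mt1; Slc39a5, Ins1, C1qb and C1qc were named after their values were seen.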

Additional observations from a re-analysis of the deposited data

Results flagged for a closer look

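Of 20 groups of 4 mice examined (10 genes in each group), 1 had a mouse far from the others, about the 1 in 20 that chance gives. Mt2 in βIgf1r mouse M151 was at a log2 CPM of 6.49, while the other βIgf1r mice lay between 5.88 and 5.91, so that the gap to the nearest of them was 0.946 of the whole range. Without M151 the log2 fold change of Mt2 was 0.26 (unadjusted p = 0.164, edgeR).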

How the results depend on the processing

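Under 17 alternative settings the log2 fold changes of the 10 genes gave 170 values, of which 20 changed sign (5 of them with library size in place of TMM and 15 elsewhere), 1 passed the unadjusted threshold (Mt1 without M150, 0.30) and the others kept both. Slc30a8 (-0.41 to -0.15), Slc30a9 (-0.25 to -0.01) and Slc39a6 (-0.28 to -0.03) kept their direction in every setting. With library size in place of TMM, Slc30a1 was -0.05, Slc30a7 -0.18, Slc39a14 -0.11, Mt1 -0.02 and Mt2 -0.15, as the median of all genes shifted to -0.19. With Xist as a covariate Slc30a1 was -0.01, Slc39a7 0.03 and Mt2 -0.04; with the acinar score Slc30a5 was 0.01 and Slc30a2 -0.06; with both, Slc30a1 was -0.04, Slc30a5 0.01, Slc39a7 0.16, Mt2 -0.13 and Tmem163 0.04. With 1 mouse left out, the ranges that crossed 0 were -0.07 to 0.03 for Slc30a5, -0.04 to 0.06 for Slc30a7, -0.21 to 0.01 for Slc39a7 and -0.09 to 0.26 for Mt2. The group difference in the log2 ratio of Slc30a8 to Iapp ran from -0.06 to 0.09 with 1 mouse left out and was -0.21 with Chga, -0.11 with Ins2 and 0.73 with Ins1. Of the 10 genes, 0 to 1 had an unadjusted p under 0.05 and 0 to 1 had groups that did not overlap with 1 mouse left out (Mt1 without M150, Slc30a8 without M152). Genes of the 7 lists at an unadjusted p under 0.05 numbered 1 with limma-voom, 5 with no filter, 1 with the acinar score, 1 with both covariates and 0 to 4 with 1 mouse left out. Over all genes this count was 1098 with no filter, 1144 with Xist, 388 with the acinar score and 383 (without M148) to 1114 (without M152) with 1 mouse left out. After adjustment DESeq2 called 8 genes, limma-voom 1 and library size without TMM 1. The causes of these shifts were not tested. No paired analysis was possible because the groups share no mouse numbers. Low counts limit Slc39a8, Slc30a2 and Mt3. With 4 mice per group, differences that lie within the intervals given are not excluded. The smallest difference that could be detected was not computed for the 10 genes.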
